A study of Mus musculus with 6 samples.

Results

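Long intergenic non-coding RNAs (lincRNAs) are transcripts of independent genes that do not encode a known protein and lie apart from coding genes. The lincRNAs described here are the rows of the deposited mouse expression matrix with the gene type lincRNA and a mean of at least 50 scaled counts over the 6 libraries, without H19, Meg3 and genes on chromosomes X and Y. The rule left 84 of the 367 lincRNA rows and of the 14515 genes in the matrix. A scaled count is a read count divided by a factor for its library and rounded. The rule uses gene type, level and chromosome and not a difference between groups, so the levels of the members are a description. It was chosen with earlier results of these data known.

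The series holds 2 libraries labelled wt (wild type), 2 labelled mdx and 2 labelled mdx/Ripk3mKO. In mdx mice the dystrophin gene Dmd is mutated, which makes them a model of Duchenne muscular dystrophy. The mdx/Ripk3mKO libraries carry the mdx label as well. Ripk3 encodes a kinase that carries out necroptosis, a programmed and inflammatory cell death. The labels do not spell out mKO or name a Cre driver, and they give no age or sex. The sample labels describe sorted satellite cells, which are muscle stem cells, in a quiescent (resting) state, at 10000 to 20000 cells per library. The series text instead describes activated wild-type cells harvested 72 hours after culture below cells of the 3 genotypes, so each group is called here by its label alone. No label states that libraries sharing a group are from different animals or cultures. The p-values therefore measure only how these libraries vary, and that variation may be technical.

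LincRNAs act in several ways. Some are hosts from which microRNAs or small nucleolar RNAs are cut, some build or occupy nuclear bodies, some bind proteins or microRNAs and withhold them from other targets, and some act on genes beside them. In muscle, hosts of microRNAs such as miR-206 and miR-133b, and the nuclear RNAs Malat1 and Neat1, have been studied in the passage from myoblast to myotube. In bulk RNA, fewer cells of a type and less RNA per cell cannot be told apart.

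All 6 libraries held muscle cell RNA. Scaled counts of Pax7, which marks satellite cells, ran from 1755 to 2119. The cell division gene Mki67 reached 13883 to 16904 and the myotube gene Myh3 110791 to 164134, levels that go against a resting state. Ripk3 was low in every library, at 45 and 32 (wt), 23 and 36 (mdx), and 17 and 33 (mdx/Ripk3mKO), so it does not separate the labels. The mdx/Ripk3mKO library 1 stood apart: Xist, which is transcribed from an inactive X chromosome, was at 6918 there and at 164 to 666 in the others. Ddx3y, a gene of the Y chromosome, was at 373 there and at 1543 to 1785 in the others. The estimated depth was 18002300 to 19672100 reads in genes for wt and mdx and 25021600 and 25345600 for mdx/Ripk3mKO, so depth and label move together.

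Of the markers of other cell types, 2 of 5 fibro-adipogenic genes were listed, with summed scaled counts of 51 to 70 (wt), 62 to 69 (mdx) and 55 to 62 (mdx/Ripk3mKO). Of the endothelial genes 4 of 5 were listed, at 38 to 48, 42 to 49 and 32 to 37 in the same order. Macrophage genes, 3 of 6 listed, summed to 46 to 62, 47 to 54 and 45 to 51, and Adgre1, Csf1r and C1qa were not listed. No lymphocyte or erythroid marker was listed. The pericyte and smooth muscle list had 4 of 6, nearly all of it Acta2, at 40899 to 51410, 37630 to 53745 and 46699 to 50384. Its other genes moved apart in mdx/Ripk3mKO against mdx: Cspg4, a proteoglycan gene, rose by 0.44 on the log2 scale (limma adjusted p = 0.0289), while Pdgfrb, a growth factor receptor gene, differed by -0.57 (adjusted p = 0.0836). Rgs5, the remaining listed gene, was low, at 22 and 27 (mdx) and 20 and 17 (mdx/Ripk3mKO). Endothelial sums, Pdgfrb and Rgs5 were thus lower, and Cspg4 higher, in both mdx/Ripk3mKO libraries than in both mdx libraries. The endothelial sums rest on low counts. Pecam1 and Kdr overlapped between these labels, and Cdh5 was at 8 and 14 (mdx) and 6 and 4 (mdx/Ripk3mKO). Of 8 myogenic and 3 proliferation genes, 0 were called in any comparison. Mki67 was at 14852 and 15531 (wt), 15928 and 16904 (mdx) and 13883 and 15067 (mdx/Ripk3mKO), a difference of -0.18 between mdx/Ripk3mKO and mdx with adjusted p = 0.209. Myod1, which encodes the muscle determination factor MyoD, was at 23226 and 21120, 19459 and 18636, and 22696 and 23595 in the same order, a difference of 0.28 with adjusted p = 0.0528. Against mdx, 2 of the 8 myogenic genes were higher and 6 lower in mdx/Ripk3mKO, with a median of -0.03. Among all tested genes 50.7% were lower. Of the proliferation genes 1 was higher and 2 lower, with a median of -0.11. On these 2 lists only Myod1 and Mki67 had a limma unadjusted p under 0.05 in this comparison, against 11.6% of all tested genes. The part of all these genes in the results below was not tested.

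The sequences that several members are known for are given first. They come from the RefSeq tables of GRCm38.p6, the same assembly as mm10, and capitals mark the seed, bases 2 to 8, with which a microRNA finds its targets. Gm28653, the most abundant member, begins at chr1:20679023, inside the 5p arm of miR-206 (chr1:20679017-20679039, plus strand). It therefore does not cover the whole miR-206 hairpin. It holds miR-206-3p (chr1:20679055-20679076, plus strand) and miR-133b-3p (chr1:20682834-20682855, plus strand). These are among the microRNAs specific to muscle.
miR-206-3p: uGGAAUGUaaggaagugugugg
miR-133b-3p: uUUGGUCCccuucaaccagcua
Mir17hg is the host of 6 hairpins of the miR-17-92 cluster, known from cell division. These fall into families by seed: miR-17 and miR-20a share one, miR-19a and miR-19b share another, and miR-18a and miR-92a each have their own.
miR-17-5p: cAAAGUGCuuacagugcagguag
miR-20a-5p: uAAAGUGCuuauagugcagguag
miR-18a-5p: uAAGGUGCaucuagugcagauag
miR-19a-3p: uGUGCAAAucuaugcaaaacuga
miR-19b-3p: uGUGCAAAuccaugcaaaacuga
miR-92a-3p: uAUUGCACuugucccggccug

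1700020I14Rik is the RNA that RefSeq also lists as Cyrano and Oip5os1. It is known for a long match to miR-7 that leads to the decay of this microRNA. A search of the transcript of 8300 bases with the miR-7a sequence found the match at positions 2935 to 2959, counted from the 5′ end. In the site, capitals mark the bases that pair: 22 of the 23 bases of the microRNA were paired, with 2 further bases of the site in a loop. A second place, at 744 to 769, paired with the seed but with only 12 bases in all.
miR-7a-5p: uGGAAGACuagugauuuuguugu
Cyrano site: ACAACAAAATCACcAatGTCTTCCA

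The 84 lincRNAs had means from 50.2 to 5707 scaled counts, with a median of 121. Of these, 7 lay over 1000 and 32 under 100. The 5 highest, Gm28653, 1700020I14Rik, Malat1, 2900097C17Rik (Norad) and Neat1, held 47.4% of the summed level of all 84. Per kilobase of exon the order changed: Gm28653 led at 1028 scaled counts per kb, followed by 1700020I14Rik at 450.1 and Norad at 387. Neat1, with 20771 bases of exon, came to 56.8 per kb. At the edge of the rule, Gm26873 (51.3), Gm37565 (50.3) and Gm13470 (50.2) lay just inside, and Gm17586 (48.8), AC124577.3 (48.2) and A530017D24Rik (47.5) just outside.

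Most members are known by a clone or model name only: 69 of 84 begin with Gm or end in Rik or carry a clone number. They lie on 19 chromosomes. Exon lengths ran from 421 to 20771 bases with a median of 2888, 17 had all exon sequence in 1 block, and GC content ran from 37.1% to 69.1% with a median of 47.5%. The median coefficient of variation across the 6 libraries was 12%.

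The lincRNA label was checked against 2 annotations. GENCODE M21 lists 77 of the 84 as lincRNA, 4 as antisense (9530082P21Rik, Gm26782, Gm26873 and 1700109K24Rik), 2 as bidirectional promoter transcripts (B230354K17Rik and 4732491K20Rik) and Gm1976 as a processed transcript. RefSeq matched 66, of which 57 are listed as lncRNA, 7 as protein-coding and 2 as pseudogenes. Among the coding entries are 1810058I24Rik, which RefSeq also names Stmp1, a small mitochondrial protein, and Zfp469, a zinc finger gene. Gm42418 is listed there as Rn18s-rs5, a pseudogene related to 18S ribosomal RNA. In M21, 12 members overlapped a coding gene on the opposite strand, 5 on the same strand, and 68 neither. Use of strand in counting is not stated in the sources here. Values of the overlapping members may include reads of their partners.

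No lincRNA passed the threshold of an adjusted p under 0.05 (limma, Benjamini-Hochberg over 14077 tested genes) in any of the 3 comparisons. All 84 had passed the filter on low values. An F-test over the 3 groups also called 0 of 84, against 0.0781% of all tested genes, and the smallest adjusted p among members was 0.185. At an unadjusted p under 0.05 the F-test held 15 of 84 (17.9%), against a background of 7.87%. Differences are given as log2(scaled count + 1), which understates changes of low genes, with the moderated standard error (SE). All 6 libraries entered 1 fit, so the comparisons share libraries and are not independent.

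In mdx/Ripk3mKO against mdx, 64 of 84 lincRNAs had a lower mean log2 level in mdx/Ripk3mKO, where 50.7% of all tested genes did. The median difference was -0.13 over the members and -0.0021 over all genes. Adjusted calls were 0 of 84, against 0.206% of all genes. At an unadjusted p under 0.05 there were 17 members (20.2%) against a background of 11.6%: 16 were lower (background 5.87%) and 1, 9530082P21Rik, was higher (background 5.77%). In 37 members (44.0%) both mdx/Ripk3mKO libraries lay below both mdx libraries, against 20.3% of all genes. In 6 members (7.14%) both lay above, against 21%. Leaving out mdx library 1 reduced the 17 to 8. Where a library is left out, its group has 1 library, and the test assumes that this library varies like those of the other groups.

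In mdx/Ripk3mKO against wt, 56 of 84 were lower, against 49.3% of all genes, with a median of -0.09. Adjusted calls were 0, as for all genes, where 0% were called. At an unadjusted p under 0.05 there were 12 (14.3%), all lower, against 3.32% of all genes in both directions, 2.09% lower and 1.24% higher. Both libraries lay below both wt libraries for 29 members (34.5%, background 15.1%) and above for 5 (5.95%, background 14.4%). The 12 became 6 without wt library 2 and 7 without mdx/Ripk3mKO library 1. Across the 3 groups, mdx/Ripk3mKO had the lowest mean for 48 of 84 members (57.1%), against 33.8% of all genes.

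In mdx against wt, 51 were higher and 33 lower, with a median of 0.05, against 49.1% of all genes higher. Adjusted calls were 0 of 84, against 0.0071% of all genes. At an unadjusted p under 0.05 there were 5 (5.95%), against 6.46%, a share near the background. Of these 4 were higher (background 3.44%) and 1 lower (background 3.02%). Both mdx libraries lay above both wt libraries for 21 members (25%, background 17.6%) and below for 8 (9.52%, background 18.3%). This tilt rested on 1 library: without wt library 1 the count of lower members was 45 and the median -0.015.

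**Figure D1:**
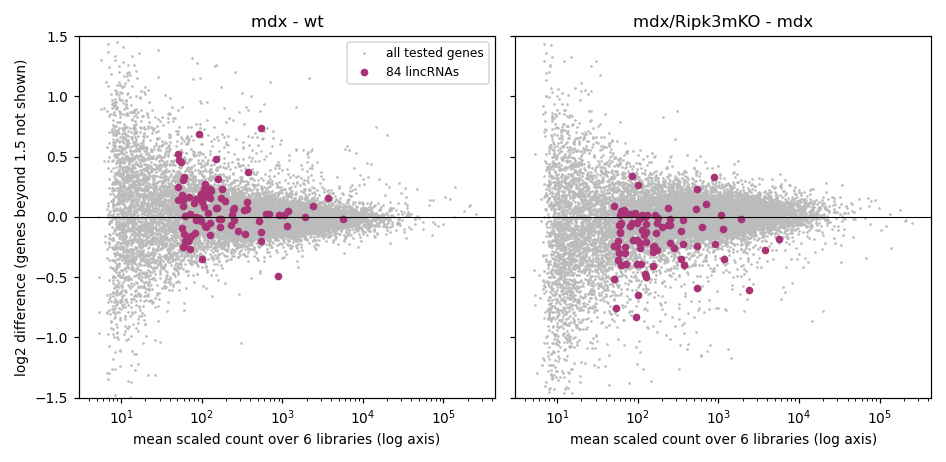
Log2 difference (vertical axis) against the mean scaled count (horizontal axis, log scale) for mdx minus wt and mdx/Ripk3mKO minus mdx. Grey dots are all tested genes and purple dots the 84 lincRNAs, of which 64 lie below 0 on the right and 33 on the left.

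The summed level of the 84 showed the same order. Members held 0.151% and 0.159% of all scaled counts (wt), 0.160% and 0.159% (mdx), and 0.135% and 0.143% (mdx/Ripk3mKO). Both mdx/Ripk3mKO libraries lay below the other 4. Without Gm26917 and Gm42418, a pair described below, the shares were 0.144% and 0.153%, 0.150% and 0.154%, and 0.131% and 0.134%.

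**Figure D2:**
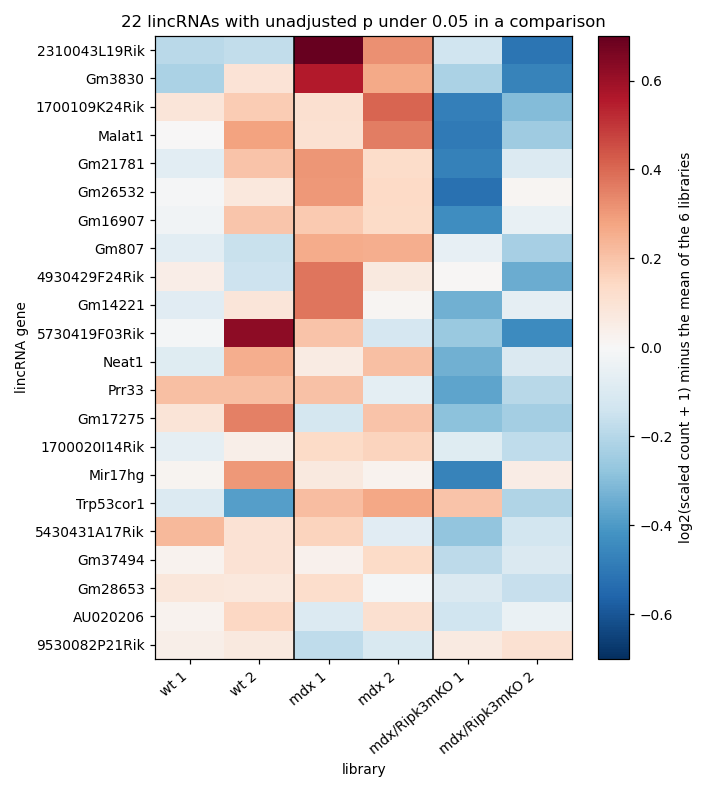
Each row is one of the 22 lincRNAs with an unadjusted p under 0.05 in at least 1 comparison and each column a library; colour gives log2(scaled count + 1) minus the mean of the row. Rows were chosen by these differences. The mdx/Ripk3mKO columns are mostly blue, and Trp53cor1 and 9530082P21Rik are red in mdx/Ripk3mKO library 1.

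Among the microRNA hosts, Gm28653 (chr1:20679023-20684298, plus strand) had scaled counts of 6016 and 5987 (wt), 6210 and 5633 (mdx) and 5303 and 5094 (mdx/Ripk3mKO). Both mdx/Ripk3mKO libraries lay below the other 4. The log2 difference was -0.19 (SE 0.056) against mdx, unadjusted p = 0.00475 and adjusted p = 0.211, and -0.21 against wt, unadjusted p = 0.00223 and adjusted p = 1. Without mdx library 1 the first of these was -0.12. These values are of the Gm28653 transcript, and mature microRNAs were not measured.

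Mir17hg (chr14:115042879-115046727, plus strand) had 283 and 344 (wt), 292 and 284 (mdx) and 201 and 289 (mdx/Ripk3mKO). The low value was that of library 1 alone, and library 2 lay within the wt range. Against wt the log2 difference was -0.37 (SE 0.16), unadjusted p = 0.0442. Mirg, an imprinted host of 14 hairpins beside Meg3, ranged from 119 to 194 with overlap between all groups. Gm26532 begins within the hairpin of miR-24-2, after its mature arms. Gm26532 had 119 and 126 (wt), 148 and 132 (mdx) and 83 and 121 (mdx/Ripk3mKO), with a difference from mdx of -0.48 (SE 0.18) and unadjusted p = 0.0179. A list of 18 microRNA hosts, of which 10 were tested, holds the 2 members Mir17hg and Mirg but not Gm28653 or Gm26532. None on the list was called. For mdx/Ripk3mKO against mdx, 5 of 10 had an unadjusted p under 0.05, against 11.6% of all tested genes. In the same comparison 9 of 10 were lower, against 50.7% of all tested genes and 64 of 84 members, with a median of -0.33.

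1700020I14Rik (Cyrano; chr2:119594303-119607502, plus strand) had the smallest adjusted p of all members. It was at 3565 and 3833 (wt), 4087 and 4143 (mdx) and 3512 and 3289 (mdx/Ripk3mKO). The mdx pair lay above all other libraries and the mdx/Ripk3mKO pair below them. The difference between mdx/Ripk3mKO and mdx was -0.28 (SE 0.057), unadjusted p = 0.000235 and adjusted p = 0.0702, and that between mdx and wt was 0.15, unadjusted p = 0.0162 and adjusted p = 0.651. With 1 mdx/Ripk3mKO library and the spread taken from the other groups, the former was -0.32 (adjusted p = 0.0209) without library 1, the higher of the pair, and -0.23 (adjusted p = 0.248) without library 2. Its nearest coding gene, Oip5, a centromere factor, was at 174 to 218 in all libraries, with unadjusted p over 0.05 in all 3 comparisons. Of the microRNA processing genes, 13 of 14 were tested and 0 were called in any comparison. For mdx/Ripk3mKO against mdx, 2 had a limma unadjusted p under 0.05, against 11.6% of all tested genes.

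Malat1 and Neat1 are neighbours on chromosome 19. Malat1 (chr19:5795690-5802672, minus strand) collects in nuclear speckles, where splicing factors are stored. It had 2362 and 2857 (wt), 2532 and 3019 (mdx) and 1668 and 1978 (mdx/Ripk3mKO). Both mdx/Ripk3mKO libraries lay below the other 4. The log2 difference was -0.61 (SE 0.14) against mdx, unadjusted p = 0.00803 and adjusted p = 0.253, and -0.52 against wt, unadjusted p = 0.0153 and adjusted p = 1.

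Neat1 (chr19:5824708-5845478, minus strand) is the scaffold of paraspeckles, bodies that hold RNA and proteins in the nucleus. It had 1102 and 1392 (wt), 1215 and 1353 (mdx) and 927 and 1089 (mdx/Ripk3mKO). The order of groups was that of Malat1, with a smaller difference: -0.35 (SE 0.13) against mdx, unadjusted p = 0.0268, and -0.30 against wt, unadjusted p = 0.0479. Frmd8, the nearest coding gene to Neat1, had an unadjusted p over 0.05 in each comparison. All 24 paraspeckle protein genes of the list were tested, and 0 were called in any comparison. In mdx/Ripk3mKO against wt, 1 had a limma unadjusted p under 0.05, against 3.32% of all tested genes, and the other comparisons had none. Relative to mdx, 10 were higher and 14 lower in mdx/Ripk3mKO, with a median of -0.02.

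2900097C17Rik (Norad; chr2:156388065-156392979, minus strand) binds proteins of the Pumilio family, which repress messenger RNAs. Its 4915 bases held 11 copies of the Pumilio element TGTANATA, the most of any member both in number and per kilobase. The next highest count was 4, and 56 of 84 members had none. Norad was at 1902 and 1923 (wt), 1910 and 1903 (mdx) and 1898 and 1872 (mdx/Ripk3mKO). Its groups differed by less than those of the other 4 most abundant members, and the 95% intervals of the differences ran from -0.14 at the lowest to 0.11 at the highest.

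Trp53cor1 (lincRNA-p21; chr17:29057474-29078961, minus strand) is induced by p53 and lies beside Cdkn1a, which encodes the cell cycle inhibitor p21. It had 141 and 115 (wt), 175 and 182 (mdx) and 173 and 130 (mdx/Ripk3mKO). The mdx libraries lay above both wt libraries, and the mdx/Ripk3mKO libraries between the lowest wt and the lowest mdx value. The difference between mdx and wt was 0.48 (SE 0.16), unadjusted p = 0.00893 and adjusted p = 0.586. Cdkn1a was at 16916 to 19534 with overlap between all groups. Pvt1, a long transcript beside the gene of the transcription factor Myc, was at 216 to 249, and Myc at 1762 to 2036.

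Snhg6, Snhg12, Snhg20 and Epb41l4aos are hosts of small nucleolar RNAs, which guide chemical changes of ribosomal RNA. None of these had an unadjusted p under 0.05. Snhg6 was the steadiest, at 342 to 376. Snhg20 went the other way from most members, with 109 and 113 (wt), 78 and 97 (mdx) and 102 and 107 (mdx/Ripk3mKO). On the whole list of 22 hosts, 16 were tested and 0 were called in any comparison. For mdx/Ripk3mKO against mdx, 1 (Gas5) had a limma unadjusted p under 0.05, against 11.6% of all tested genes. In the same comparison 13 were lower, with a median of -0.07. For mdx against wt the only such gene was Snhg14 (0.40, background 6.46%). For mdx/Ripk3mKO against wt it was Snhg15 (-0.42, background 3.32%). Core proteins of the nucleolar particles were not called either, in 8 of 8 tested. The remaining role lists are short and share members. Relative to mdx, mdx/Ripk3mKO was lower for 4 of 5 tested nuclear body and chromatin RNAs (median -0.35) and 5 of 5 RNAs linked to p53 or stress (-0.14). It was also lower for 5 of 5 studied in muscle (-0.35) and 6 of 7 imprinted transcripts (-0.44), with 0 called. The p53 list counts Norad at -0.02 and Pvt1 at -0.06. In this comparison 50.7% of all tested genes and 64 of 84 members were lower. The counts on these lists are therefore not read as results about a role.

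**Figure D3:**
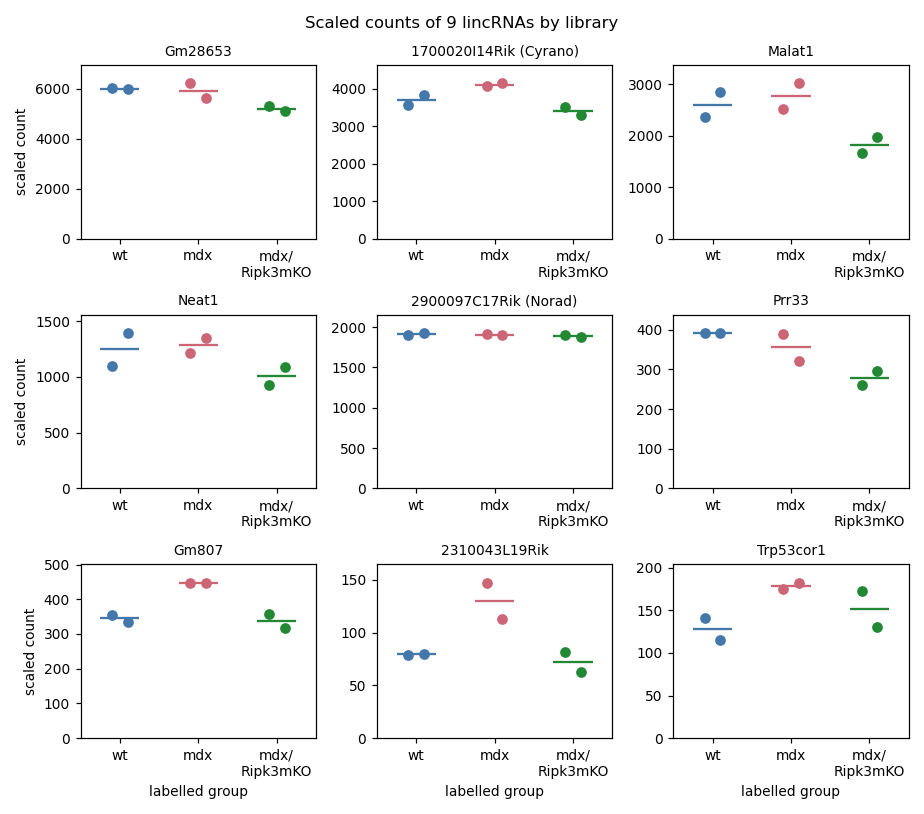
Scaled counts of 9 lincRNAs by labelled group, with 1 dot per library and a bar at the mean of the 2. Axes start at 0, and Norad lies between 1872 and 1923 in all 6 libraries while the mdx/Ripk3mKO dots of Malat1 lie at 1668 and 1978.

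LincRNAs without an assigned role are grouped here by their pattern. In a first group, mdx was above the other labels. Gm807 (chr13:99100706-99107580, plus strand) had 355 and 335 (wt), 447 and 446 (mdx) and 359 and 318 (mdx/Ripk3mKO). The mdx pair lay above all other libraries, by 0.37 (SE 0.094) over wt, unadjusted p = 0.0014 and adjusted p = 0.439, and mdx/Ripk3mKO minus mdx was -0.40, unadjusted p = 0.000756 and adjusted p = 0.104.

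2310043L19Rik (chr1:177641542-177642943, minus strand) had 79 and 80 (wt), 147 and 113 (mdx) and 82 and 63 (mdx/Ripk3mKO). Here too the mdx pair was highest, by 0.69 (SE 0.19) over wt, unadjusted p = 0.00255. The mdx/Ripk3mKO libraries were lower than mdx by -0.83, the largest difference of any member, with unadjusted p = 0.000566 and adjusted p = 0.0949. Leaving out 1 mdx/Ripk3mKO library, with the spread taken from the other groups, gave unlike results. Gm807 differed from mdx by -0.49 (adjusted p = 0.0406) without library 1, the higher of its pair, and by -0.31 (adjusted p = 0.38) without library 2. For 2310043L19Rik, whose library 1 was also the higher, these were -1.02 (adjusted p = 0.0301) and -0.65 (adjusted p = 0.35). Gm3830, close to Cbfb, had 44 and 55, 76 and 62, and 44 and 37 in the order wt, mdx and mdx/Ripk3mKO, with -0.75 (SE 0.22) against mdx and unadjusted p = 0.00457.

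In a second group, mdx/Ripk3mKO was below both other labels. Prr33 (chr7:142491074-142506771, minus strand) had 391 and 391 (wt), 389 and 322 (mdx) and 261 and 295 (mdx/Ripk3mKO). The difference was -0.35 (SE 0.11) against mdx, unadjusted p = 0.00614, and -0.49 against wt, unadjusted p = 0.000448 and adjusted p = 0.902. It overlaps Tnnt3, the fast troponin T gene, on the opposite strand. Tnnt3 was at 19572 and 19896 (wt), 24790 and 22087 (mdx) and 22361 and 18150 (mdx/Ripk3mKO), an order that differs from that of Prr33.

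1700109K24Rik (chr15:77084443-77096314, plus strand) lies opposite Rbfox2, a splicing regulator of muscle. It had 104 and 111 (wt), 106 and 130 (mdx) and 70 and 79 (mdx/Ripk3mKO), a difference of -0.65 (SE 0.17) against mdx, unadjusted p = 0.00168, and -0.52 against wt, unadjusted p = 0.00755. Rbfox2 itself was at 10767 to 12105. 5430431A17Rik had 635 and 583, 605 and 513, and 448 and 497 in the order wt, mdx and mdx/Ripk3mKO, with -0.24 (SE 0.095) against mdx, unadjusted p = 0.024, and -0.37 against wt, unadjusted p = 0.00165.

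The other members with an unadjusted p under 0.05 were lower in mdx/Ripk3mKO. Gm37494, which RefSeq lists as protein-coding, differed from mdx by -0.22. The same difference was -0.41 for Gm16907, -0.50 for Gm21781, -0.39 for 4930429F24Rik and -0.39 for Gm14221. Gm16907 overlaps Fancc on its own strand. Against wt, AU020206 differed by -0.18, 5730419F03Rik by -0.66 and Gm17275, which lies opposite the histone gene H3f3a, by -0.48. The exception, 9530082P21Rik, had 557 and 568 (wt), 478 and 503 (mdx) and 566 and 583 (mdx/Ripk3mKO), with -0.20 (SE 0.078) for mdx against wt and 0.23 for mdx/Ripk3mKO against mdx. It overlaps Kremen2 and Flywch1 on the opposite strand. Gm42047, 1810058I24Rik, B230354K17Rik and Dubr, a transcript studied in muscle differentiation, had no unadjusted p under 0.05.

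Gm26917 and Gm42418 varied between libraries of one label, with coefficients of variation across the 6 libraries of 23.5% and 85.3%. They adjoin on chromosome 17 (chr17:39843013-39846341 and chr17:39846958-39848788, plus strand), with GC contents of 69.1% and 60.2%. Gm26917 had 1114 and 918 (wt), 700 and 740 (mdx) and 706 and 1163 (mdx/Ripk3mKO). Gm42418 had 363 and 342, 1445 and 240, and 230 and 666 in the same order, so that mdx library 1 and mdx/Ripk3mKO library 2 were high. For Gm26917, mdx minus wt was -0.49 (SE 0.29) with adjusted p = 0.845, and it passed the threshold without either mdx/Ripk3mKO library, at 0.0185 without library 1 and 0.0192 without library 2. For mdx/Ripk3mKO minus mdx it was 0.33 in the full fit, 0.69 without mdx/Ripk3mKO library 1 and -0.028 without library 2. The adjusted p of 0.00333 for the former rests on 1 mdx/Ripk3mKO library (1163) and on the spread of the other groups, while the pair itself lay at 706 and 1163.

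Each lincRNA was set beside its nearest coding gene. The nearest protein-coding gene in the matrix lay at a median distance of 5232.5 bases, within 10000 bases for 46 members and in overlap for 9. Member and neighbour had differences of the same sign in 47 of 84 pairs for mdx/Ripk3mKO against mdx, 43 for mdx against wt and 46 for mdx/Ripk3mKO against wt. Pearson's r across the pairs was 0.025, 0.11 and 0.11, as a description over genes that share libraries and in some pairs a neighbour.

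**Figure D4:**
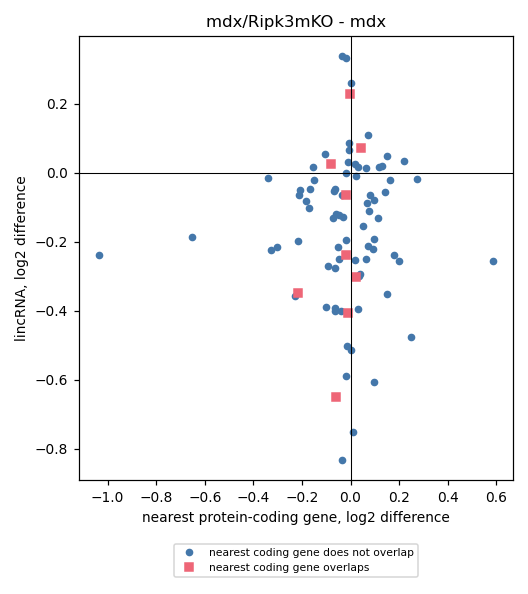
Log2 difference between mdx/Ripk3mKO and mdx for each lincRNA (vertical axis) against that of its nearest protein-coding gene (horizontal axis); red squares mark the 9 overlapping pairs. Points spread along the vertical axis below 0 with r of 0.025.

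Other non-coding types in the matrix were compared at the same minimum mean of 50 and outside X and Y. In mdx/Ripk3mKO against mdx, antisense RNAs had a median of -0.20 with 38 of 47 lower, and TEC rows, transcripts that await experimental checks, -0.27 with 34 of 43 lower. Sense intronic RNAs had -0.48 with 6 of 7 lower. Protein-coding genes had a median of 0.01 with 46.8% of 10297 lower, and the 1960 coding genes within the middle range of lincRNA levels -0.01 with 53.4% lower. Processed pseudogenes, with 0.04 and 38.6% of 57 lower, were on the side of the coding genes. Processed transcripts (median -0.08, 63.0% of 54 lower) and bidirectional promoter transcripts (median -0.09, 66.7% of 9 lower) lay nearer to 0 than the lincRNAs. The size of the lower medians thus varied among non-coding types, with lincRNAs between these.

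**Figure D5:**
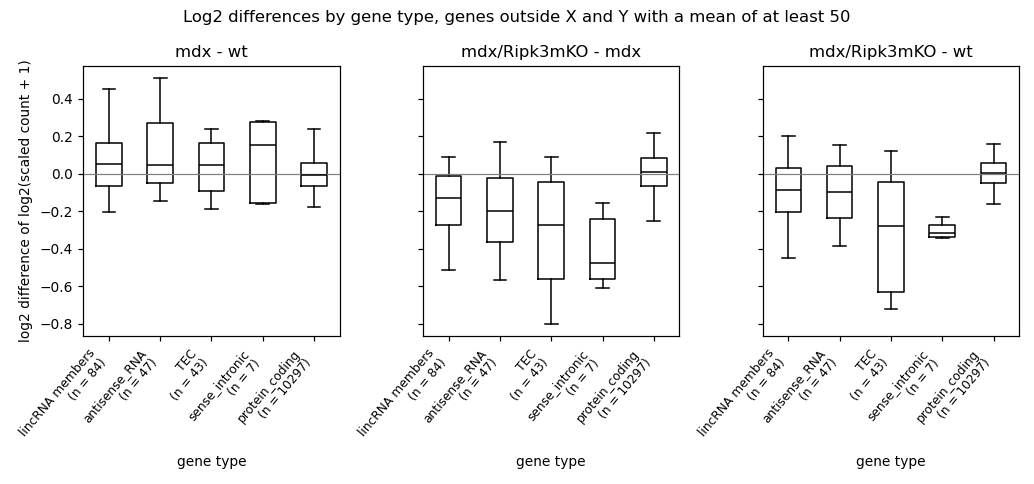
Log2 differences by gene type in the 3 comparisons. Boxes show the quartiles and median, and whiskers the 5th and 95th percentiles over genes; in mdx/Ripk3mKO minus mdx the medians of lincRNAs (-0.13), antisense RNAs (-0.20), TEC rows (-0.27) and sense intronic RNAs (-0.48) lie below that of coding genes (0.01).

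Some technical measures moved with this pattern. Spearman's rho between GC content and the mdx/Ripk3mKO minus mdx difference was 0.30 across all tested genes and 0.17 across the members, and for exon length it was -0.08 and 0.11. The mdx/Ripk3mKO libraries were also the deepest. With values corrected for GC content and exon length, a check chosen after seeing the data, 60 of 84 lincRNAs were lower and the median was -0.09. The part of depth was not tested. Genes of 2 lists of RNA decay were not called. Of 18 tested genes of the nuclear exosome and its adaptors, 11 were higher and 7 lower, with a median of 0.02. On the separate list of nonsense-mediated decay factors, 10 of 10 were not called. At a limma unadjusted p under 0.05 in mdx/Ripk3mKO against mdx there were 1 of the former and 2 of the latter, against 11.6% of all tested genes.

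Promoter windows, from 250 bases before to 50 after the start, were in the RefSeq table for 53 of the 84. For some members that start lay far from the deposited one, by 73414 bases for Gm14005 and 39202 for Gm14221. Such windows may not be promoters of the counted transcripts. The E-box CAGCTG, which the muscle factors MyoD and myogenin can bind, was in 10 of 53 (18.9%) and in 16.3% of the 32817 promoters in the table. CACCTG, another E-box, was in 20.8% against 20.2%, and TGACGTCA in 5.66% (3 of 53) against 1.79%. TATAAA was in 7.55% against 13.6%, and CCAAT in 39.6% against 37.4%. Each was searched on both strands. Windows were available for 10 members lower in mdx/Ripk3mKO than in mdx at a limma unadjusted p under 0.05. Of these 10, 4 held CAGCTG and 3 held CACCTG. Malat1 and Prr33 are among those with CAGCTG, and their windows are shown with CAGCTG and CACCTG in capitals. Other forms of the E-box are not marked. In Malat1 (GRCm38.p6 chr19:5802623-5802922, minus strand) CAGCTG begins 41 bases after the start. In Prr33 (GRCm38.p6 chr7:142506722-142507021, minus strand) CAGCTG begins at -197 and CACCTG at -89. A match of letters is not evidence of binding.
Malat1 promoter: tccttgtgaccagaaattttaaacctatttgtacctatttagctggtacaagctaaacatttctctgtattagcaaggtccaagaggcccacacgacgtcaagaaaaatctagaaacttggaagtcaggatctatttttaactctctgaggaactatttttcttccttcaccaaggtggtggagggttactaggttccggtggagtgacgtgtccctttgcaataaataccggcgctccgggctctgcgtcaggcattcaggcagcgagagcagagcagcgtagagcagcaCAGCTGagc
Prr33 promoter: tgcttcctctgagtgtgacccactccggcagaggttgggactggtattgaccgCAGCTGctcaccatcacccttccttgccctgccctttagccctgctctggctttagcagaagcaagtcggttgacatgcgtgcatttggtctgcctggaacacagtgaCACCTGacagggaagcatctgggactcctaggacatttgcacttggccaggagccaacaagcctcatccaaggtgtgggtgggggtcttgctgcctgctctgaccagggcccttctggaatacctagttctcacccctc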

How the data were processed

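RNA libraries of mouse muscle cells were made with the Takara SMARTer stranded total RNA pico kit, per the labels' protocols. Tools named by the submitters' processing notes are DESeq2 1.18.1, featureCounts 1.6.3, STAR 2.6.1d and Trimmomatic 0.36, with build mm10. The deposited values are treated as a score: whole numbers that the authors scaled between libraries. Divisors estimated from skipped whole numbers were 0.87 to 1.21, which puts a floor set at 3 counts at 2.49 to 3.45 scaled counts. This floor is not the counting error of the members, which lie above it. Both mdx columns carry one header, so their numbers are names only. Genes with at least 10 in at least 2 libraries were fitted with limma 3.58.1 (R 4.3.3, statmod 1.5.0) on log2(scaled count + 1), group as the only term, with a variance trend, robust fitting and 3 residual degrees of freedom, and checked on simulated data. P-values were adjusted by Benjamini-Hochberg over 14077 genes, with a threshold of 0.05. Named are members with an unadjusted p under 0.05, the 12 highest, those on role lists and those at the rule's edge. Members and lists were chosen with earlier results of these data known. All pairs of libraries differed by more than sampling noise. The mean chi-square over genes, a measure of this excess, was 3.72 within wt, 4.26 within mdx and 9.07 within mdx/Ripk3mKO. The closest pair was wt library 1 and mdx/Ripk3mKO library 2, at 2.78. Over all genes, libraries of one label were thus not always closest to each other. Exon length, blocks and types came from GENCODE M21, names and sequences from RefSeq GRCm38.p6. Results for some genes are not reported here.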

Additional observations from a re-analysis of the deposited data

How the results depend on the processing

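Each comparison was refitted with a pseudocount of 10, other filters and scalings, no variance trend, 2 groups only, GC content and exon length corrected, and each library left out. Among 64 lincRNAs lower in mdx/Ripk3mKO than in mdx, 41 were lower under all 14 alternatives. Several alternatives could not change this difference: other filters, no variance trend, 2 groups only, and a wt library left out. The fewest stayed lower without mdx/Ripk3mKO library 1 (54) and without mdx library 2 (55). All 16 with an unadjusted p under 0.05 stayed lower, but they were chosen by their differences in these same libraries. Adjusted calls were 0, except 1 for mdx against wt with only the 2 groups compared, 0 to 1 with a library left out, and 0 to 4 for mdx/Ripk3mKO against mdx with a library left out. Counts at an unadjusted p under 0.05 were 9 for mdx against wt without variance trend and robust fitting, and with a library left out 6 to 7 (mdx against wt), 8 to 17 (mdx/Ripk3mKO against mdx) and 6 to 16 (mdx/Ripk3mKO against wt). The mdx against wt median was 0.033 with GC and length corrected, and -0.015 to 0.080 with a library left out. Gm26917 in mdx/Ripk3mKO against mdx ranged from -0.028 to 0.69 with a library left out. The causes were not tested beyond the smaller number of libraries. The mdx headers carry no replicate number, so no paired analysis was possible for mdx. For mdx/Ripk3mKO against wt, same-numbered libraries did not deviate together (correlation -0.011), and with the replicate number as a block 0 were called, 56 were lower, 12 had an unadjusted p under 0.05 and the median was -0.09. With 2 libraries a group and a median SE of 0.16 over the members, small differences of the 32 members under 100 were not detectable.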
